A study of Mus musculus with 24 samples.

Results

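GLUT1-deficient and control macrophages were compared after 24 h of classical activation. The comparison rested on 8 of the 24 one-colour arrays of the study, the 4 titled KO M1 and the 4 titled WT M1. KO cells came from mice with LysMCre and floxed Slc2a1 alleles (Slc2a1M-/-), in which Cre is made from the lysozyme locus Lyz2 and is meant to act in myeloid cells. WT cells came from Slc2a1 fl/fl mice, and the labels name no Cre in them, so effects of the Cre insertion and of the loss of Slc2a1 cannot be told apart. Cells of both genotypes were grown from bone marrow for 6 days in 20 ng/ml M-CSF and then received 5 ng/ml LPS and 10 ng/ml interferon-gamma (M1). The remaining 16 arrays held the same genotypes left unstimulated (M0) or given 10 ng/ml interleukin-4 (M2), with 4 biological replicates per group and 6 groups in all. Neither the age of the mice nor the exons removed by Cre are given in the sources used here, and whether a culture came from 1 mouse or several is not stated either.

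GLUT1, the product of Slc2a1, carries glucose into macrophages down its gradient, and LPS with interferon-gamma turns macrophages to rapid glycolysis and to the production of nitric oxide, itaconate and cytokines. Cells short of glucose are known to fold and glycosylate proteins less well in the endoplasmic reticulum (ER), which engages the unfolded protein response: ATF6 and XBP1 raise chaperones and degradation factors, and PERK, like the amino acid sensor GCN2, raises ATF4 and its targets. The paralogous factors MondoA and ChREBP, in contrast, read sugar phosphates and raise Txnip when glucose is plentiful.

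Each array held 56605 gene probes. Levels are log2 intensities relative to the 75th percentile of the array, and differences are KO M1 minus WT M1 on the same log2 scale, with the standard error (SE) of a limma fit over all 24 arrays and p-values adjusted by the Benjamini-Hochberg method over 25645 genes. A gene is said to have risen or fallen where its adjusted p was under 0.05. Groups are 4 KO and 4 WT arrays unless stated, and their number limits the precision. The KO M1 arrays were dimmer, with 75th percentiles of 1504 to 1705 intensity units against 1810 to 2364 in WT M1, and 54% to 58.7% of probes were well above background in KO M1 against 56.1% to 63% in WT M1. Replicate 3 of both genotypes stood apart: Ddx3y, Eif2s3y and Uty, which lie on the Y chromosome, were at -7.59, -7.48 and -7.40 in KO replicate 3 and at -7.36, -7.25 and -6.68 in WT replicate 3, far below the other M1 arrays. Kdm5d, also on the Y chromosome, was not low there. It was at 0.18, 0.41, 0.06 and 0.26 in KO replicates 1 to 4 and at 1.57, 1.25, 1.47 and 0.83 in WT replicates. The Kdm5d probe differed by -1.05 between KO M1 and WT M1 (adjusted p = 2.61e-05 in limma), and whether it reads Kdm5d alone was not tested. Xist, which silences an X chromosome, was at 0.06 in KO replicate 3 and -0.15 in WT replicate 3, above the other 6 M1 arrays. The arrays lay on 3 slides, and each same-numbered KO and WT pair shared a slide, so a difference within a pair is also a difference within a slide.

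The cultures carried the markers of macrophages. Of 10 defining macrophage genes, all were well above background on all 8 arrays, and their summed level was 9.64 to 10.1 in KO M1 and 10.2 to 10.4 in WT M1. These 10 include Lyz2, which carries the Cre and fell by 3.37. In all 3 fell and 1 rose, against 21.4% and 22.8% of all genes. In 5 the KO arrays lay below the WT arrays without overlap, against 21.3% of all genes, and in 1 above. Csf1r, the receptor for M-CSF, averaged 7.20 ± 0.18 in KO M1 and 7.41 ± 0.15 in WT M1 (SD, n = 4 each). Markers of some other cells moved with genotype, and their counts are to be read beside 22.8% higher and 21.4% lower over all genes. The summed level of 15 neutrophil markers was 7.80 to 8.41 in KO M1 and 6.41 to 7.47 in WT M1, with 4 higher and 1 lower. The median difference of these markers was 0.52, 1.57, 3.06 and -0.08 in pairs 1 to 4. Of 7 T cell markers 4 were higher, with a sum of 6.85 to 7.59 in KO M1 and 4.24 to 4.85 in WT M1, where, named after their values were seen, Il7r, which activated myeloid cells can also make, differed by 2.70 and Cd3d and Cd3e by 0.25 and 0.13 without passing the test. Dendritic cell markers summed to 6.93 to 7.08 in KO M1 and 5.80 to 6.43 in WT M1 (3 of 9 higher, 2 lower). Mast cell and basophil markers summed to 2.55 to 3.38 in KO M1 and -0.0047 to 1.86 in WT M1 (3 of 10 higher), and fibroblast and endothelial markers to 2.98 to 3.85 in KO M1 and 1.12 to 1.89 in WT M1 (1 of 9 higher). The sums of the B cell, NK cell, and erythroid and megakaryocyte markers overlapped between the groups. Of 9 B cell markers 4 were higher and 2 lower, and 0 of 4 NK cell and 0 of 7 erythroid and megakaryocyte markers were called. Cd2, Cma1 and the B cell marker Ebf1 were not well above background on any of the 8 arrays. The part of these cells, and of the difference in brightness, in the results was not tested, and in RNA from whole cultures fewer cells of a type and less RNA per cell cannot be told apart.

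In all, 11326 of the 25645 genes (44.2%) differed between KO M1 and WT M1, 5836 higher (22.8%) and 5490 lower (21.4%), and 5727 of them by at least 2-fold. The KO and WT values did not overlap with KO above in 22.1% of genes and with KO below in 21.3%. Against this, KO and WT differed in 14 genes (0.0546%) in the unstimulated state, with 0.0078% higher and 0.0468% lower, and in 11 (0.0429%) after interleukin-4, with 0.0156% higher and 0.0273% lower. The median difference over all genes was 0.13 (0.16, 0.18, 0.00 and 0.08 in pairs 1 to 4), and it was -0.05 with quantile normalization and -0.14 when arrays were scaled to their medians, so the median of a gene list is to be read beside these values. The counts of each list below are likewise to be read beside 22.8% higher and 21.4% lower. With median scaling 32.3% of the called genes were higher, against 51.5% in the main analysis. Without the replicate 3 pair 10768 genes were called, and 10080 of the 11326 kept their call and sign.

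The targeted gene itself did not pass the test in M1. Slc2a1 read 6.09, 6.11, 5.81 and 5.99 in KO replicates 1 to 4 and 6.17, 5.92, 5.02 and 5.88 in WT replicates 1 to 4 (difference 0.25, SE 0.35, adjusted p = 0.583). Its probe lies on chromosome 4 at 118809864 to 118809923 of mm9, and since the exons removed by Cre are not given, it does not check the deletion. Lyz2, which carries the Cre, was at 4.77, 4.14, 5.27 and 4.33 in KO and at 8.09, 7.93, 8.02 and 7.98 in WT, with no overlap, so Lyz2 separated the genotypes on every array. A dimmer probe of Lyz2, well above background on all 8 arrays, differed by -6.20, so the size of the fall depends on the probe.

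**Figure D1:**
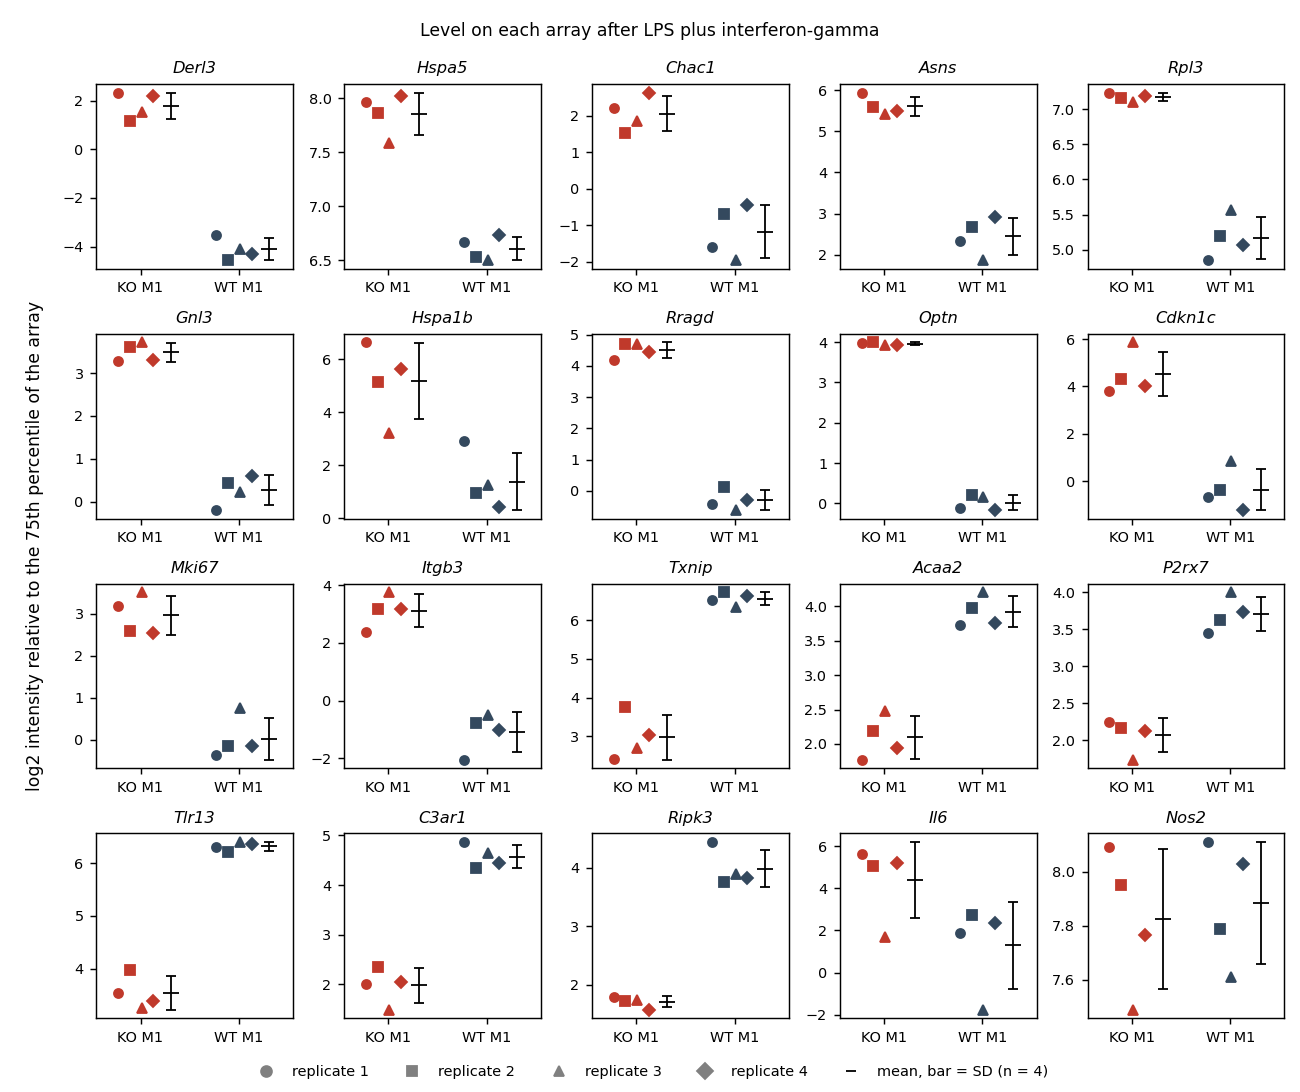
Level of 20 genes on each of the 8 arrays, with KO M1 left of WT M1, as log2 intensity relative to the 75th percentile of the array; symbols are replicates and bars are the SD around the mean (n = 4). In 18 panels the 4 KO points lie wholly above or wholly below the 4 WT points, while those of Il6 and Nos2 overlap.

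Genes for protein folding in the ER were higher in KO M1 cells. Of 18 ER chaperones and folding enzymes 16 rose and 0 fell, against 22.8% of all genes that rose, and the median of the list was 1.24 (1.31, 1.26, 1.03 and 1.34 in pairs 1 to 4). Sdf2l1 and Dnajb9, both partners of the chaperone BiP, rose by 2.67 and 2.48, the chaperone Hyou1 by 2.34 and the folding factor Creld2 by 1.85. Hyou1 was at 0.13, -0.38, -0.82 and -0.05 in KO replicates and at -2.43, -2.68, -2.83 and -2.54 in WT replicates. Hspa5, the gene of BiP itself, is named here after its values were seen: it read 7.96, 7.86, 7.58 and 8.02 in KO M1 and 6.67, 6.53, 6.50 and 6.73 in WT M1 (difference 1.25, SE 0.14, adjusted p = 3.36e-07). In both genes every KO array was above every WT array, with replicate 3 the lowest of the KO arrays. The disulphide isomerases Pdia3 and P4hb differed by 0.39 and -0.08 and did not pass (adjusted p = 0.0708 and 0.598), though Pdia3 was called higher with the pairs as a block. Leaving out the replicate 3 pair, 15 rose and 0 fell.

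ER-associated degradation pulls misfolded proteins back into the cytosol for the proteasome. Of 16 such genes 10 rose and 1 fell (median 0.65), and 2 of them stood far above the rest. Derl3, a channel subunit, read 2.31, 1.17, 1.55 and 2.19 in KO replicates and -3.51, -4.57, -4.11 and -4.29 in WT replicates, a 60.6-fold difference (5.92 log2, SE 0.27, adjusted p = 8.96e-12). Herpud1, which assembles the degradation complex, read 4.69, 4.04, 4.10 and 4.42 in KO and 0.95, 1.29, 1.26 and 1.2 in WT (difference 3.14, SE 0.18, adjusted p = 6.08e-11). Neither gene had overlapping groups, and in neither did the genotypes differ in M0 (-0.23 and 0.07) or M2 (-0.29 and -0.13). Of 28 genes for ER translocation and vesicle transport 17 rose and 2 fell (median 0.49), led by the signal peptidase subunit Spcs2 (1.42) and the translocon partner Ssr4 (0.91). That list depended on scaling, with 6 higher and 4 lower when arrays were scaled to their medians.

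Among 16 sensors and factors of the unfolded protein response 9 rose and 1 fell (median 0.47). The risers were led by the glutathione-degrading Chac1 (3.22), the phosphatase subunit Ppp1r15a (2.72), which reverses the block on translation, the pseudokinase Trib3 (2.62) and the factor Ddit3, or CHOP (2.42). Chac1 was at 2.22, 1.52, 1.85 and 2.63 in KO M1 and at -1.59, -0.68, -1.96 and -0.45 in WT M1 (SE 0.69, adjusted p = 0.000646). Ddit3 was at 5.80, 5.22, 5.54 and 5.37 in KO M1 and at 2.79, 3.61, 2.32 and 3.55 in WT M1 (SE 0.34, adjusted p = 5.92e-06). In both, the WT arrays spread more than the KO arrays and the groups lay apart. The stress factor Creb3 fell by 0.57, and Atf3, usually induced with Ddit3, averaged 6.14 ± 0.17 in KO M1 and 6.61 ± 0.25 in WT M1 (SD, n = 4 each) and did not pass (adjusted p = 0.154), although it was called lower under 5 of the other settings tried, with differences of -0.47 to -0.85.

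The promoters of several of these genes hold letters known to be bound by the factors of the response. RefSeq promoters (GRCm38.p6, 250 bases before to 50 after the annotated start) were searched on both strands for the ER stress element (CCAAT and CCACG with 9 bases between them), its variant ERSE-II (ATTGG and CCACG with 1 base between them), the ATF4 element (TGATG, any base, then AA and any base) and the carbohydrate response element (CACGNG and CACGNG with 5 bases between them). The ER stress element was found in 8 of the 15 ER chaperone genes with a promoter in the table (53.3%) and in 2 of the 13 degradation genes (15.4%), against 0.137% of all 27025 genes with a promoter. ERSE-II was in 1 gene of each list, against 0.0444% of all genes with a promoter. Shown are the 250 bases before the start, 5′ to 3′ along the gene, with the match in capitals: Derl3 (chr10:75893148-75893397, plus strand), Creld2 (chr15:88819396-88819645, plus), Hspa5 (chr2:34771840-34772089, plus), Herpud1 with ERSE-II (chr8:94386179-94386428, plus), and, for the ATF4 element, Chac1 (chr2:119350992-119351241, plus) and Asns (chr6:7693210-7693459, minus). No match of another searched motif overlapped the capitals in these promoters.
Derl3: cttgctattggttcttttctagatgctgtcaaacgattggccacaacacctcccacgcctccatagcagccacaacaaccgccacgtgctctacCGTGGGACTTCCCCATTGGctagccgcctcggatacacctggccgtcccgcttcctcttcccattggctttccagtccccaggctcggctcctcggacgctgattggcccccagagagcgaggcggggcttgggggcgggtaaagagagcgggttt
Creld2: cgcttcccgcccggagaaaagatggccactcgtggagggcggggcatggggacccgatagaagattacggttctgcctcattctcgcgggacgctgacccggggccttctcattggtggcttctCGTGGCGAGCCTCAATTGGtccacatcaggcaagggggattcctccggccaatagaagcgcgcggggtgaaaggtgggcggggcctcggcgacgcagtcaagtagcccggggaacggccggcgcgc
Hspa5: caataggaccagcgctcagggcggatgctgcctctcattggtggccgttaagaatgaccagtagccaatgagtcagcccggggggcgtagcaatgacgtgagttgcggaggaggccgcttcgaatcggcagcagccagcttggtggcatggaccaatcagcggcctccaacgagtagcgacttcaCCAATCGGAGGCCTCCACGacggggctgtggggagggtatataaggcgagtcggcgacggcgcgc
Herpud1: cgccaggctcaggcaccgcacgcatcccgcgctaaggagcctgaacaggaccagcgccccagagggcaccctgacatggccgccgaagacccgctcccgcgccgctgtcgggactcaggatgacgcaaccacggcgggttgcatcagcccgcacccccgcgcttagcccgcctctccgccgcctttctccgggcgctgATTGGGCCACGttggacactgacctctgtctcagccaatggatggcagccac
Chac1: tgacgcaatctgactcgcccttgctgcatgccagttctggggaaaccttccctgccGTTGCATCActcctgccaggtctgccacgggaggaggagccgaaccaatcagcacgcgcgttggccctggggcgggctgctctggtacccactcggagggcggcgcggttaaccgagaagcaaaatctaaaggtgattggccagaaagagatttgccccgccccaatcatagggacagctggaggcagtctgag
Asns: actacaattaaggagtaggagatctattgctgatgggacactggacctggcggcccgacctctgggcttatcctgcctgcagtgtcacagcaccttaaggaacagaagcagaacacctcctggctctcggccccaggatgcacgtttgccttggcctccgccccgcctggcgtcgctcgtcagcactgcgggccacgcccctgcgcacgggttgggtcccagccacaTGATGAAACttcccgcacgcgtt
Among the 10 chaperone and degradation genes with the ER stress element all rose, from 0.46 for the oxidase Ero1b, named after its value was seen and not called under 11 of the other settings, to 5.92 for Derl3. With or without the element, 16 of 18 chaperone and 10 of 16 degradation genes rose, against 22.8% of all genes. Whether genes with the element differed from the rest of their lists was not tested. Herpud1 also holds an ATF4 element, at -113 from its start. A match is a description of these letters and not a measured site of binding.

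**Figure D2:**
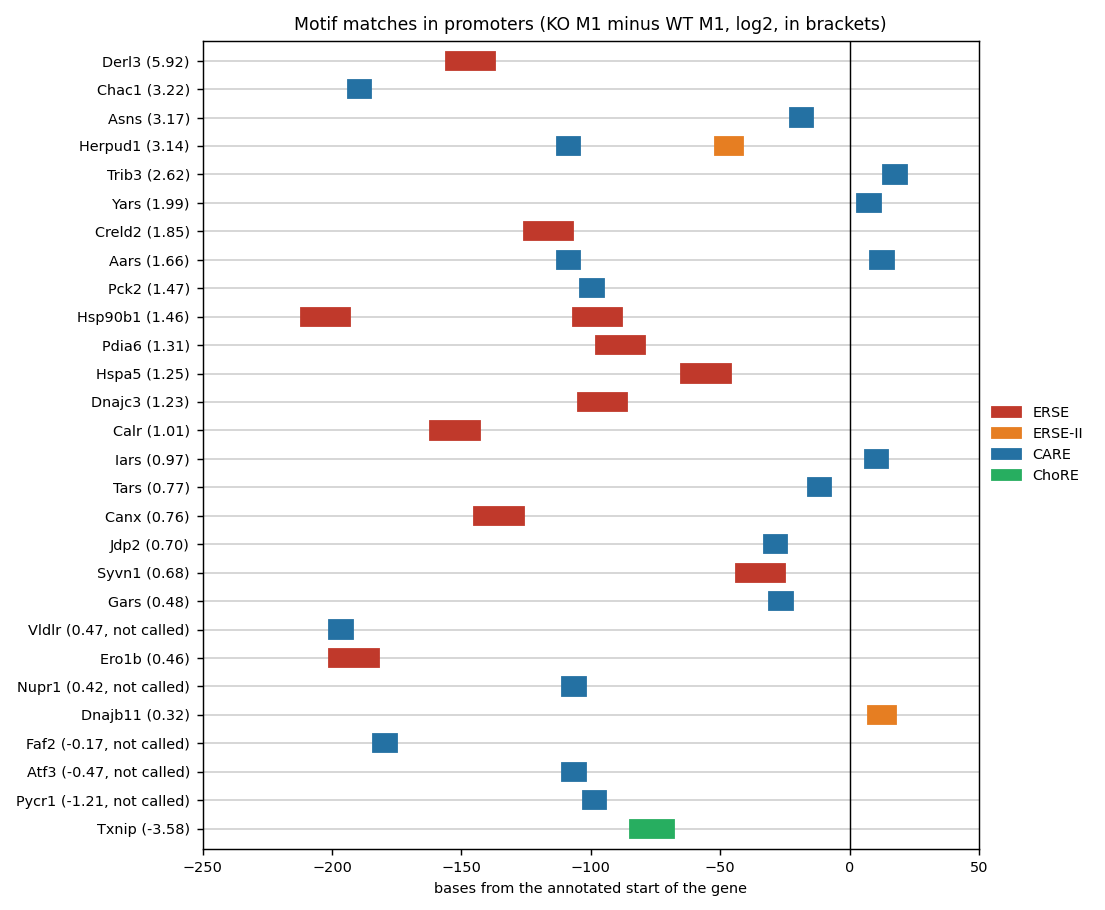
Matches of the ER stress element (ERSE), ERSE-II, the ATF4 element (CARE) and the carbohydrate response element (ChoRE) in the promoters of stress, ATF4, tRNA synthetase and glucose-sensing genes, by distance in bases from the annotated start, with genes ordered by KO M1 minus WT M1 (in brackets, log2). Derl3 (5.92) is at the top and Txnip (-3.58), which alone here holds the carbohydrate response element, at the bottom.

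Many targets of ATF4 and genes of the amino acid supply were higher in KO M1 cells. Of 19 ATF4 targets outside transport and serine synthesis 11 rose and 0 fell (median 0.70). The hormone Gdf15 rose by 4.67, the asparagine synthetase Asns by 3.17 and the mTORC1 inhibitor Ddit4 by 2.61. Gdf15 was at 6.87, 5.23, 6.48 and 6.20 in KO M1 and at 1.34, 2.19, 3.15 and -0.60 in WT M1 (SE 0.71, adjusted p = 1.39e-05). Asns read 5.94, 5.60, 5.41 and 5.49 in KO M1 and 2.32, 2.69, 1.86 and 2.91 in WT M1 (SE 0.62, adjusted p = 0.000257). Neither gene's groups overlapped, and for Gdf15 the WT arrays were spread over more than the KO arrays. The ATF4 element was in 6 of 17 of these targets (35.3%) and in 5 of 13 tRNA synthetase genes (38.5%), in 3 of 14 amino acid transporters (21.4%) and in 0 of 12 genes for serine and one-carbon synthesis, against 4.5% of all genes with a promoter.

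Of 20 cytosolic aminoacyl-tRNA synthetases, which charge tRNAs with amino acids, 17 rose and 2 fell (median 0.70), led by those for tyrosine (Yars, 1.99), glutamate and proline (Eprs, 1.89), serine (Sars, 1.73) and alanine (Aars, 1.66, with 1 of its other probes at 0.25 and not called). With median scaling 11 rose and 3 fell. Yars was at 3.70, 3.92, 3.96 and 3.83 in KO M1 and at 1.62, 1.95, 1.84 and 2.04 in WT M1, with each group within a narrow range. Of 18 amino acid transporters 10 rose and 3 fell (median 0.79). Risers were the lysosomal Slc36a4 (2.97), the glycine carrier Slc6a9 (2.93), the arginine and lysine carrier Slc7a1 (2.78) and the leucine exchanger subunit Slc7a5 (2.22), and those that fell were Slc7a7 (-1.99), Slc36a1 (-1.69) and Slc7a8. Slc36a4 read 2.71, 2.85, 3.35 and 2.81 in KO M1 and -0.31, -0.05, 0.08 and 0.14 in WT M1. Slc7a1 read 5.09, 4.87, 5.08 and 4.83 in KO M1 and 1.93, 2.57, 1.57 and 2.69 in WT M1, again without overlap. Of 14 genes for serine and one-carbon synthesis 5 rose and 3 fell. Phgdh, the first enzyme of serine synthesis, was at 1.96, 1.13, 2.2 and 1.89 in KO M1 and at -2.66, -1.71, -1.84 and -2.12 in WT M1 (difference 3.88, SE 0.52, adjusted p = 2.95e-06), whereas Psph, the last enzyme of that path, fell by 0.98. Shmt1, which moves a carbon unit from serine to folate, rose by 1.22 (SE 0.15, adjusted p = 7.96e-07) on the probe that was well above background on all 8 arrays. Its other probe, which is brighter over the 24 arrays and stands for the gene in the counts, was well above background on the 4 KO M1 arrays only.

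Genes of the ribosome, each read by its brightest probe, rose almost without exception. Of 40 cytosolic ribosomal proteins 39 rose and 0 fell, and the median was 1.31 (1.44, 1.41, 0.96 and 1.47 in pairs 1 to 4), and in 39 the KO arrays lay above the WT arrays without overlap, against 22.1% of all genes. Rpl10a rose by 2.49 (3 WT arrays gave a value), Rpl3 by 2.01 and Rpl5 by 1.79. Rpl3 was at 7.24, 7.16, 7.11 and 7.19 in KO M1 and at 4.85, 5.19, 5.57 and 5.06 in WT M1 (SE 0.13, adjusted p = 1.59e-10). WT replicate 3 was the highest WT array and still more than 1 unit below every KO array. The 1 member that did not pass, Rps24, differed by 0.25 (adjusted p = 0.23), while 2 of its other probes were called higher. Rps9 had 4 probes, from -0.78 to 1.02, with 2 called higher and 2 called lower. Many ribosomal protein genes have near-identical processed copies in the genome, which a 60-base probe may also read.

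From M0 to M1 the median of the 40 ribosomal proteins changed by 0.59 in KO cells and by -0.81 in WT cells, against 0.25 in KO and 0.045 in WT over all genes. Rpl3, for example, averaged 6.72 ± 0.14 in KO M0 and 6.75 ± 0.10 in WT M0 (SD, n = 4 each). The test of whether the genotype difference in M1 was unlike that in both M0 and M2 was passed, with the sign of the M1 difference, by 34 of the 40, against 11.4% of all genes that passed it as higher. Scaling to array medians left 38 of the 40 higher and 0 lower, with a median of 1.04.

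Many genes for building ribosomes and starting translation rose as well. Of 26 genes for ribosome biogenesis 15 rose and 1 fell (median 0.90), among them the growth factor-induced transcription factor Myc (3.31), the nucleolar GTPase Gnl3 (3.22) and the nucleolar proteins Ncl (2.07) and Npm1 (2.05). Gnl3 was at 3.29, 3.61, 3.72 and 3.31 in KO M1 and at -0.20, 0.43, 0.22 and 0.60 in WT M1. Myc was at -1.37, -0.13, 0.12 and -0.88 in KO M1 and at -4.41, -4.16, -2.25 and -4.71 in WT M1 (SE 0.72, adjusted p = 0.000722), the WT array of replicate 3 being the nearest to the KO arrays. Of 23 translation initiation factors 13 rose and 2 fell (median 0.69), led by Eif3a (1.56) and Eif5 (1.41), while the translation inhibitor Eif4ebp2 fell by 0.96. Of the mitochondrial ribosomal proteins 7 of 32 rose and 12 fell (median -0.17). Without the replicate 3 pair 6 rose and 5 fell, with median scaling 2 rose and 21 fell, and the difference between the 2 kinds of ribosomal protein was not tested.

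Cytosolic chaperones rose as well, 17 of 25 with 0 lower (median 0.72). The inducible HSP70 genes Hspa1b and Hspa1a rose by 3.78 and 3.39, and the mitochondrial chaperones Hspa9 and Hspd1 by 1.87 and 1.68. Hspa1b read 6.63, 5.14, 3.22 and 5.64 in KO M1 and 2.90, 0.94, 1.25 and 0.42 in WT M1 (SE 0.57, adjusted p = 1.47e-05). The groups did not overlap, but KO replicate 3 exceeded WT replicate 1 by little. Hspa1a and Hspa1b are near-identical copies, so the probes may read both.

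**Figure D3:**
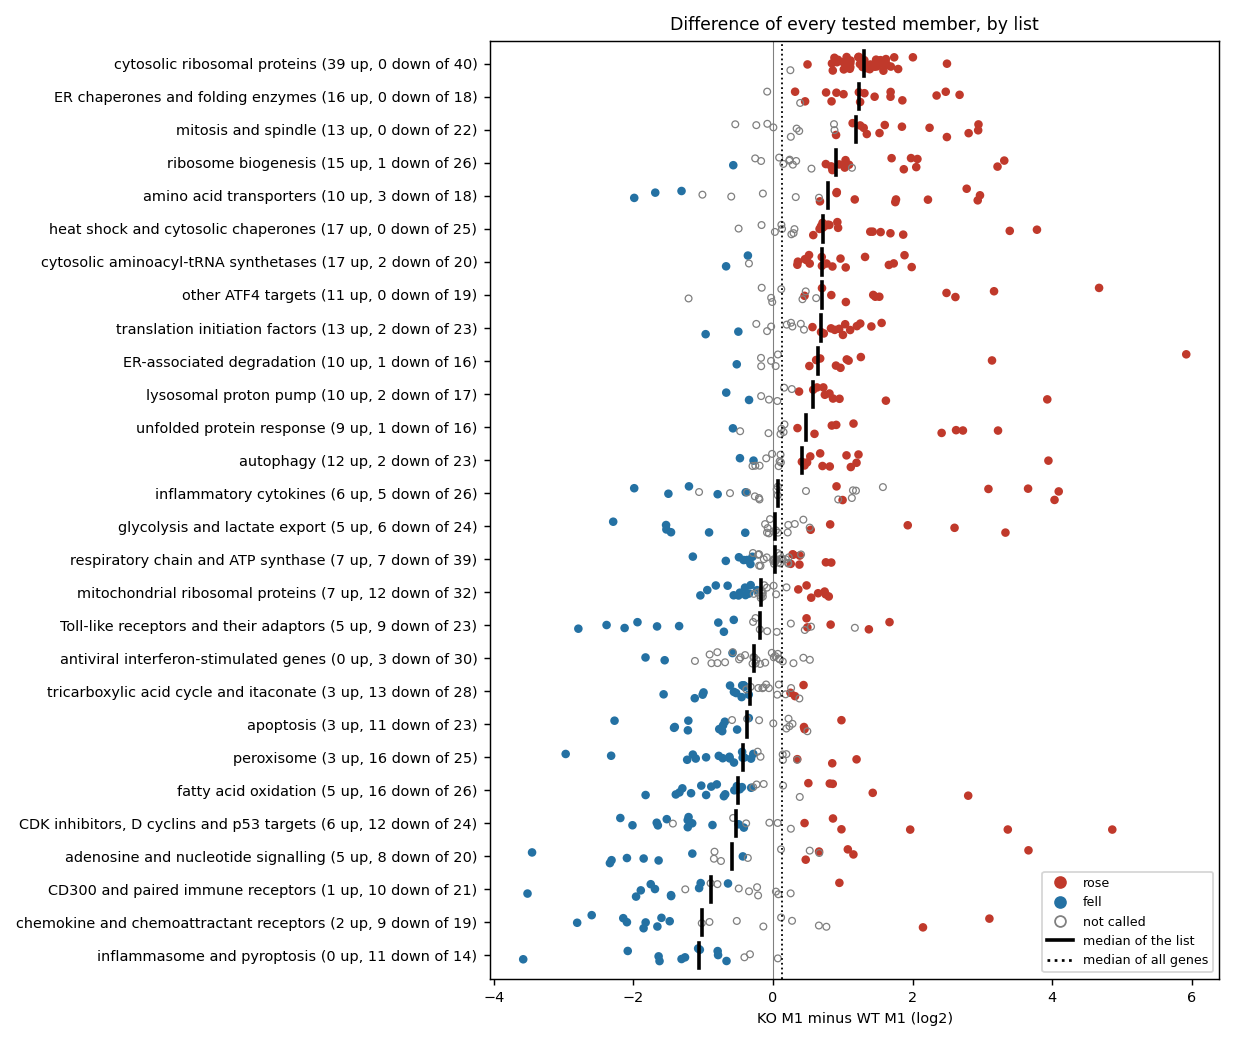
KO M1 minus WT M1 (log2) of every tested member of 28 gene lists, with filled points for genes that rose or fell, open points for genes that were not called, a bar at the median of the list and a dotted line at the median of all genes (0.13). Cytosolic ribosomal proteins (39 of 40 higher) are at the top and inflammasome genes (11 of 14 lower) at the bottom.

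The lysosome and autophagy lists were mixed in sign, with large single changes. The lysosomal proton pump, which acidifies the organelle, had 10 of 17 genes higher and 2 lower (median 0.58), led by its macrophage subunit Atp6v0d2. It was at 5.85, 5.92, 6.27 and 5.88 in KO M1 and 1.51, 2.11, 2.88 and 1.69 in WT M1 (difference 3.93, SE 0.23, adjusted p = 5.47e-11). Lysosomal hydrolases and membrane proteins had 10 of 30 higher and 3 lower (10 and 7 with the pairs as a block), and their median of 0.24 turned to -0.01 with quantile normalization and -0.03 with median scaling. The calcium channel Mcoln1 rose by 1.35 and the acid glucosidase Gaa by 1.31, and the glucuronidase Gusb fell by 1.25. Of 23 autophagy genes 12 rose and 2 fell (median 0.41), or 7 and 6 with median scaling. Optn, a receptor that binds ubiquitin on cargo, was at 3.99, 4.00, 3.94 and 3.94 in KO M1 and at -0.12, 0.20, 0.16 and -0.17 in WT M1, a 15.4-fold difference (3.95 log2, SE 0.19, adjusted p = 1.34e-11). The ATG8 relative Gabarapl1 and the receptor Nbr1 rose by 1.23 and 1.2.

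Of 22 genes for the MiT/TFE factors and for signalling from the lysosome to mTORC1, the kinase that couples nutrients to growth, 10 rose and 7 fell (median 0.26, but -0.02 with median scaling). Rragd, a GTPase that recruits mTORC1 and a known target of MiT/TFE factors, was at 4.18, 4.71, 4.69 and 4.44 in KO M1 and at -0.44, 0.12, -0.62 and -0.28 in WT M1 (difference 4.81, SE 0.23, adjusted p = 1.23e-11). Another probe gave 4.89 and the last -0.13 without a call. The Rag regulator Flcn rose by 1.59 and the leucine sensor Sesn2, also an ATF4 target, by 1.52. Of the MiT/TFE factors Mitf fell, at 3.1, 3.49, 3.55 and 3.05 in KO M1 and 4.62, 4.67, 4.72 and 4.48 in WT M1 (difference -1.33, SE 0.15, adjusted p = 3.49e-07). The CLEAR element of lysosomal genes, searched as GTCAC followed by GTGAC, was in 0 of 11 proton pump, 0 of 23 hydrolase and 0 of 21 mTORC1 and MiT/TFE genes, against 0.37% of all genes with a promoter. At so low a share, lists of this size would seldom hold a match, so these counts cannot tell the lists from all genes.

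Genes that burn fat were lower. Of 26 genes for fatty acid oxidation 16 fell and 5 rose, against 21.4% of all genes that fell, and the median was -0.50 (-0.59, -0.57, -0.55 and -0.37 in pairs 1 to 4). The thiolase Acaa2 fell by 1.82, the carnitine carrier Slc25a20 differed by -1.39, the dehydrogenase Acadm by -1.34 and Cpt1a, the rate-setting carnitine transferase, by -1.3, all called. Acaa2 was at 1.77, 2.19, 2.48 and 1.94 in KO M1 and at 3.73, 3.98, 4.21 and 3.76 in WT M1, so each KO array was more than 1 unit below every WT array. Among the risers was Acsl3 (2.80), which activates fatty acids mainly for lipid droplets. Of 25 peroxisomal genes 16 fell and 3 rose (median -0.43). Ehhadh, an enzyme of peroxisomal oxidation, was not well above background on any KO M1 array and was at least 4.89-fold lower there (adjusted p = 1.43e-08).

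In the tricarboxylic acid cycle list 13 of 28 genes fell and 3 rose (median -0.33), or 9 and 3 without the replicate 3 pair. Those that fell included the succinyl-CoA ligase subunit Suclg2 (-1.57) and the cytosolic isocitrate dehydrogenase Idh1 (-1.01). Suclg2 was at -3.55, -2.46, -1.86 and -2.62 in KO M1 and at -1.29, -1.13, -0.54 and -1.27 in WT M1, and KO replicate 3 was the only KO array within 1 unit of a WT array. Acod1, which makes itaconate from the cycle and is strongly induced by LPS, averaged 7.84 ± 0.22 in KO M1 and 7.97 ± 0.16 in WT M1 (SD, n = 4 each; adjusted p = 0.897). Of 39 genes of the respiratory chain and ATP synthase 7 rose and 7 fell, against 22.8% and 21.4% of all genes. Their median was 0.03, or -0.21 with quantile normalization, where 2 were higher and 17 lower, and with the pairs as a block 11 rose and 12 fell.

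The glucose-sensing list held genes that moved in both directions, 3 higher and 4 lower of 9. Txnip, an arrestin that limits glucose uptake, was at 2.41, 3.76, 2.70 and 3.03 in KO M1 and at 6.53, 6.73, 6.34 and 6.62 in WT M1 (difference -3.58, SE 0.28, adjusted p = 2.38e-09). Its promoter (chr3:96557707-96557956, plus strand, GRCm38.p6) holds the carbohydrate response element, which 0.0487% of promoters hold, shown here in capitals.
Txnip: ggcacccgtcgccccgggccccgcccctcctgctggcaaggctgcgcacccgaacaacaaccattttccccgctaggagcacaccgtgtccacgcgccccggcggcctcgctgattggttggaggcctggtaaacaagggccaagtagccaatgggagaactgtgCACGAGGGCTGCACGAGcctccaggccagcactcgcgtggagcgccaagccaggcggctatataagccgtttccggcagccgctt
Its paralogs Arrdc3 and Arrdc2 fell by 2.2 and 1.33. Arrdc4, another arrestin known as a MondoA target, rose on its brighter probe, at 4.32, 4.22, 3.90 and 4.04 in KO M1 and 1.91, 2.08, 1.18 and 2.45 in WT M1, but its second probe differed by -0.27 without a call, so the direction for that gene rests on 1 probe.

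Of 24 glycolytic genes 5 rose and 6 fell, near the 22.8% and 21.4% over all genes, or 8 and 6 with the pairs as a block, and the median of 0.02 was -0.25 with median scaling. Eno2, the neuronal enolase, was at 3.83, 3.47, 3.56 and 3.37 in KO M1 and at 0.15, 0.44, 0.04 and 0.28 in WT M1 (difference 3.33, SE 0.22, adjusted p = 2.33e-10). Hk2, the inducible hexokinase, was at 5.69, 5.72, 6.28 and 5.66 in KO M1 and at 4.06, 3.89, 3.68 and 3.99 in WT M1 (difference 1.93, SE 0.21, adjusted p = 1.55e-07). Both lay apart from WT by more than 1 unit. The lactate carrier Slc16a1 rose by 2.60 while the carrier Slc16a3 fell by 1.53, and the aldolase Aldoc and the regulator Pfkfb4 fell by 2.29 and 1.53. Ldha, which makes lactate, averaged 7.58 ± 0.13 in KO M1 and 7.36 ± 0.08 in WT M1 (SD, n = 4 each) and did not pass (adjusted p = 0.119). In the pentose phosphate pathway 1 of 11 rose and 3 fell (6 with median scaling), among them its first enzyme G6pdx (-1.62, SE 0.13, adjusted p = 3.14e-09).

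Arginine can be used by Nos2 to make nitric oxide or by Arg1 to make ornithine. Nos2 did not differ beyond its spread, at 8.09, 7.95, 7.49 and 7.76 in KO M1 and 8.11, 7.79, 7.61 and 8.03 in WT M1 (difference -0.06, SE 0.45, adjusted p = 0.928). Arg1 read 0.36, 1.41, 1.71 and 0.72 in KO M1 and 6.22, 5.89, 6.26 and 6.01 in WT M1, a 33-fold lower level (-5.04 log2, SE 0.37, adjusted p = 9.85e-10). The groups of Arg1 were more than 4 units apart. Its mean was also lower in KO in the other states, by less. It was -0.68 ± 1.12 in KO M0 and 0.87 ± 0.17 in WT M0, and 6.92 ± 0.12 in KO M2 and 7.35 ± 0.27 in WT M2 (SD, n = 4 each). The polyamine enzyme Odc1 rose by 1.76, the ornithine aminotransferase Oat by 1.69 and the arginine carrier Slc7a2 by 1.76.

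Of 26 inflammatory cytokines 6 rose and 5 fell, near the 22.8% and 21.4% over all genes, or 11 and 6 with the pairs as a block, and the median was 0.07, or -0.21 with median scaling. Inhba, a subunit of activin, was at 7.11, 6.67, 5.33 and 6.96 in KO M1 and at 2.49, 3.61, -0.83 and 4.42 in WT M1 (difference 4.09, SE 0.73, adjusted p = 9.62e-05). Il12b, the shared subunit of interleukins 12 and 23, read 6.51, 7.41 and 7.48 on the 3 KO arrays with a value and 2.62, 3.58, 2.51 and 3.66 in WT M1 (difference 4.03, SE 0.48, adjusted p = 1.16e-06). In both, no KO array came down to a WT array. Tnfsf15, a T cell co-stimulator, rose by 3.66.

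Il6 was at 5.61, 5.04, 1.68 and 5.22 in KO M1 and at 1.87, 2.73, -1.76 and 2.37 in WT M1, with overlap because replicate 3 was low in both genotypes. Within pairs 1 to 4 it was higher by 3.75, 2.31, 3.44 and 2.85 (difference 3.09, SE 1.11, adjusted p = 0.0289). That call was lost without the pairs of replicates 1, 2 or 4 (2.87, 3.35 and 3.17), without the KO array of replicate 1, 2 or 4 (2.68, 2.87 and 2.81), without the WT array of replicate 3 (2.07) and when only the 8 arrays were fitted. Il10, the anti-inflammatory cytokine, read -1.22, -1.03, -2.21 and -1.28 in KO M1 and 1.24, 1.11, -1.19 and 1.04 in WT M1 (difference -1.99, SE 0.49, adjusted p = 0.00241), and only WT replicate 3 reached the KO arrays. Tnf and Il1b did not pass: Tnf averaged 3.74 ± 0.60 in KO M1 and 4.80 ± 0.48 in WT M1 (adjusted p = 0.111) and Il1b 5.12 ± 1.77 in KO M1 and 5.05 ± 1.98 in WT M1 (adjusted p = 0.963; SD, n = 4 each). Tnf was called lower in the 3 settings that fitted the 8 arrays alone or the pairs, and with median scaling.

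Of 30 antiviral interferon-stimulated genes 0 rose and 3 fell (median -0.27), against 21.4% of all genes that fell, and 4 had an unadjusted p under 0.05 in limma. With median scaling 6 fell, and with the pairs as a block 8. In 11 of the 30 the KO arrays lay below the WT arrays without overlap, against 21.3% of all genes, and in 1 above. From M0 to M1 these genes changed by a median of 3.90 in KO cells and 3.66 in WT cells. Of 17 interferon-inducible GTPases 0 rose and 3 fell (median -0.59, and -0.52, -0.45, -0.82 and -0.57 in pairs 1 to 4), with Gbp7 at -1.29 and Gbp10 at -0.86. Gbp2b, which was not in this list, differed by -3.32 and was called lower. With the pairs as a block 7 fell, and in 11 of the 17 the KO arrays lay below the WT arrays without overlap. The interferon factor Irf1 averaged 7.78 ± 0.23 in KO M1 and 7.54 ± 0.09 in WT M1 (SD, n = 4 each) and did not pass (adjusted p = 0.416). In antigen presentation by MHC class II 5 of 13 rose and 2 fell (median 0.40). The master regulator Ciita rose by 1.94 and the chain H2-Aa by 1.63.

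Inflammasome genes were lower in KO M1 cells. Of 14 inflammasome and pyroptosis genes 11 fell and 0 rose, against 21.4% and 22.8% of all genes. The median was -1.06 (-1.16, -0.90, -1.15 and -1.14 in pairs 1 to 4). Txnip, which is also a member of this list, fell most. Nlrp1b, a sensor of bacterial proteases, was at -1.32, -0.89, -0.70 and -1.05 in KO M1 and at 0.98, 0.91, 1.76 and 0.71 in WT M1 (difference -2.08, SE 0.28, adjusted p = 4.11e-06). P2rx7, the ATP-gated channel that triggers the NLRP3 inflammasome, was at 2.25, 2.16, 1.73 and 2.12 in KO M1 and at 3.45, 3.63, 4.00 and 3.73 in WT M1 (difference -1.64, SE 0.22, adjusted p = 4.09e-06). Neither overlapped, although 2 dimmer probes of P2rx7 differed by only -0.73 and -0.51 and were not called. Nlrp3 itself averaged -2.91 ± 0.65 in KO M1 and -2.50 ± 0.49 in WT M1 (SD, n = 4 each; adjusted p = 0.264). The adaptor Pycard fell by 1.31 on its brighter probe and rose by 2.28 on a dim one.

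Of 23 Toll-like receptors and adaptors 9 fell and 5 rose (median -0.19), against 21.4% and 22.8% of all genes, or 10 and 8 with the pairs as a block. Tlr13 and Tlr8, which sense RNA in endosomes, fell by 2.79 and 2.38, Tlr3 by 1.94 and the adaptor Tirap by 2.13. Tlr13 was at 3.54, 3.98, 3.25 and 3.39 in KO M1 and at 6.32, 6.21, 6.40 and 6.37 in WT M1. Tlr2, a receptor for bacterial lipoproteins at the cell surface, moved the other way, at 4.50, 4.38, 4.07 and 4.61 in KO M1 and 2.47, 2.81, 2.12 and 3.48 in WT M1 (difference 1.67, SE 0.26, adjusted p = 1.71e-05). Both receptors had groups that did not overlap. The adaptor Ticam2 rose by 1.37. Tlr12, which was not in this list, differed by -3.18 and was called lower.

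Of 19 chemokine and chemoattractant receptors 9 fell and 2 rose (median -1.02), against 21.4% and 22.8% of all genes. The receptors of complement fragments C3ar1 and C5ar1 fell by 2.60 and 2.14, and Ccr1 by 2.81. The Ccr1 probe was well above background on 7 of the 8 M1 arrays. C3ar1 read 2.01, 2.35, 1.49 and 2.05 in KO M1 and 4.87, 4.35, 4.64 and 4.43 in WT M1 (SE 0.16, adjusted p = 8.76e-11). Cxcr4, the receptor for CXCL12, was at 2.68, 2.74, 2.65 and 2.14 in KO M1 and at -0.77, -0.42, -0.76 and -0.26 in WT M1 (difference 3.1, SE 0.24, adjusted p = 2.46e-09). Every Cxcr4 value in KO was above, and every C3ar1 value below, the WT values, and the atypical receptor Ccrl2 rose by 2.15.

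Of 21 CD300 and paired receptors 10 fell and 1 rose (median -0.89). The counts here are to be read beside 21.4% lower and 22.8% higher over all genes. Cd300lb was at -1.03, -0.75, -0.67 and -1.23 in KO M1 and 2.36, 2.66, 3.16 and 2.2 in WT M1 (difference -3.52, SE 0.18, adjusted p = 2.1e-11). The lectins Clec4a1 and Clec4a3 fell by 1.96 and 1.89 and Cd300a rose by 0.95. Of 20 genes for adenosine and nucleotide signalling 8 fell and 5 rose (median -0.59): the receptors Adora3, P2ry13 and P2ry12 fell by 3.45, 2.34 and 2.31, and P2ry1 rose by 3.66. Of 15 Fc receptor and signalling genes 7 fell and 2 rose, or 10 and 0 with quantile normalization and with median scaling, led by the phosphatase Inpp5d (-1.67) and the kinase Btk (-1.38). Scavenger and efferocytosis receptors were split, 8 higher and 10 lower of 24. Itgb3, an integrin that binds dying cells and matrix, read 2.37, 3.17, 3.76 and 3.18 in KO M1 and -2.05, -0.76, -0.50 and -1.03 in WT M1 (difference 4.21, SE 0.31, adjusted p = 8.19e-10), though a second probe differed by 0.73 and was not called. The mannose receptor Mrc1 rose by 2.64 and the lectin Clec4n and the scavenger receptor Msr1 fell by 2.68 and 1.62.

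Many mitosis genes were higher in KO M1 cells. Of 22 mitosis and spindle genes 13 rose and 0 fell (median 1.2; 1.68, 0.95, 1.34 and 0.98 in pairs 1 to 4), and from M0 to M1 the median changed by -4.60 in KO cells and -6.24 in WT cells. Mki67, the Ki-67 antigen, was at 3.18, 2.60, 3.52 and 2.55 in KO M1 and at -0.37, -0.15, 0.75 and -0.14 in WT M1 (difference 2.94, SE 0.30, adjusted p = 9.37e-08), with averages of 5.35 in KO M0 and 5.17 in WT M0. The spindle protein Nusap1 rose by 2.94, on 4 KO arrays and 3 WT arrays above background. Of 26 DNA replication genes 6 rose and 4 fell, near the 22.8% and 21.4% over all genes, with Mcm2 at 2.62 and Ccne1 at 1.75 against Gins1 at -1.99 and Mcm6 at -1.68; with the pairs as a block 18 were higher.

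Cdkn1c, the inhibitor p57, was at 3.81, 4.32, 5.86 and 4.04 in KO M1 and at -0.64, -0.39, 0.84 and -1.22 in WT M1, a 29.1-fold difference (4.86 log2, SE 0.45, adjusted p = 2.16e-08), with replicate 3 the highest array of both genotypes. The stress genes Gadd45a and Gadd45b rose by 3.37 and 1.97. Ccnd1, cyclin D1, was at 3.84, 4.00, 3.68 and 3.90 in KO M1 and at 6.36, 6.23, 5.88 and 5.69 in WT M1, with no overlap. Its difference of -2.19 (SE 0.83, adjusted p = 0.0374) lost its call without any single M1 array other than WT replicate 4, and without any pair, where it was -2.08 to -2.32. In the whole list of 24 inhibitors, cyclins and p53 targets 12 fell and 6 rose, with E2f2 at -2.01 and Cdk6 at -1.67.

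Of 23 apoptosis genes 11 fell and 3 rose (median -0.37), against 21.4% and 22.8% of all genes. Ripk3, the kinase of necroptosis, was at 1.80, 1.73, 1.75 and 1.58 in KO M1 and at 4.45, 3.75, 3.90 and 3.83 in WT M1 (difference -2.27, SE 0.26, adjusted p = 4.67e-07), and Casp8, which holds necroptosis in check, fell by 1.42 and Bad by 1.41. The BH3-only gene Bbc3 rose by 0.98. Of 26 macrophage lineage factors and receptors 11 fell and 5 rose (median -0.25), or 17 and 3 with median scaling. Maf, a factor of resident macrophages, was at 2.65, 3.51, 2.17 and 2.89 in KO M1 and at 5.25, 4.95, 4.53 and 4.72 in WT M1 (difference -2.06, SE 0.32, adjusted p = 2.36e-05). Neither Ripk3 nor Maf had overlapping groups, and Klf2 fell by 2.13. In iron handling Hamp, the gene of the hormone hepcidin, was at 0.16, 0.68, 0.62 and 0.67 in KO M1 and at -5.29, -4.47, -5.46 and -5.03 in WT M1 (difference 5.60, SE 1.16, adjusted p = 0.000523). The Hamp probe was well above background on 7 of the 8 M1 arrays. Of 17 iron genes 3 rose and 3 fell, against 22.8% and 21.4% of all genes, or 2 and 7 with median scaling.

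Among genes well above background on all 8 arrays with groups that did not overlap, leaving out predicted loci and clones, the largest differences were in genes of varied roles. Rasd2, a Ras-like GTPase, read 3.17, 3.61, 3.80 and 3.32 in KO M1 and -3.43, -3.05, -2.72 and -4.01 in WT M1, a 110-fold difference (6.78 log2, SE 0.39, adjusted p = 4.42e-11). Kif1a, a motor of axonal transport, was at 4.66, 4.72, 4.56 and 4.55 in KO M1 and at -1.61, -1.36, -2.32 and -1.64 in WT M1, an 81.8-fold difference (6.35 log2, SE 0.38, adjusted p = 7.82e-11). Mgll, the monoacylglycerol lipase, was at 4.12, 4.11, 5.67 and 4.16 in KO M1 and at -0.84, -0.16, -0.88 and -1.66 in WT M1 (5.40 log2, SE 0.48, adjusted p = 1.2e-08). In all 3 genes the groups were at least 4 units apart. The other genes among the 15 largest rises were Derl3, Mreg (5.92), Vnn3 (5.52), Slco4a1 (5.45), Dcbld2 (5.39), Unc93a (5.35), Gem (5.22), Ttll2 (5.17), Hivep3 (5.02), Grasp (5.00), Tmem266 (4.95) and Plcxd2 (4.92). Dimmer probes of Slco4a1 (-0.67 and 0.76), Unc93a (-0.04) and Hivep3 (0.73 to 2.28) gave smaller or opposite values.

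Among the 15 largest falls, after Atf7, Arg1, Txnip, Cd300lb, Adora3 and Lyz2, were the fatty acid carrier Fabp7 (-3.54), the histone genes H1f2 (-3.43) and H3c14 (-3.17), the DNA methylation cofactor Dnmt3l (-3.36 on 1 probe, 0.07 on another), the GTPase Gbp2b (-3.32), Calhm2 (-3.31), Prr15 (-3.22), Tmem51 (-3.21) and Tlr12 (-3.18). Atf7 differed by -5.46 on 1 probe and by near 0 on 3 others, and on the first it averaged -1.77 in KO M0 and 4.81 in WT M0, and -2.69 in KO M2 and 3.73 in WT M2. H1f2 was at 0.19, 1.15, 0.35 and 0.41 in KO M1 and at 3.74, 4.19, 4.47 and 3.41 in WT M1 (SE 0.30, adjusted p = 8.09e-09). Tlr12, an endosomal receptor, was at -2.98, -2.27, -0.48 and -2.91 in KO M1 and at 0.94, 0.41, 2.95 and -0.21 in WT M1 (SE 0.78, adjusted p = 0.00208), with replicate 3 the highest in both groups and only a narrow gap between the groups.

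**Figure D4:**
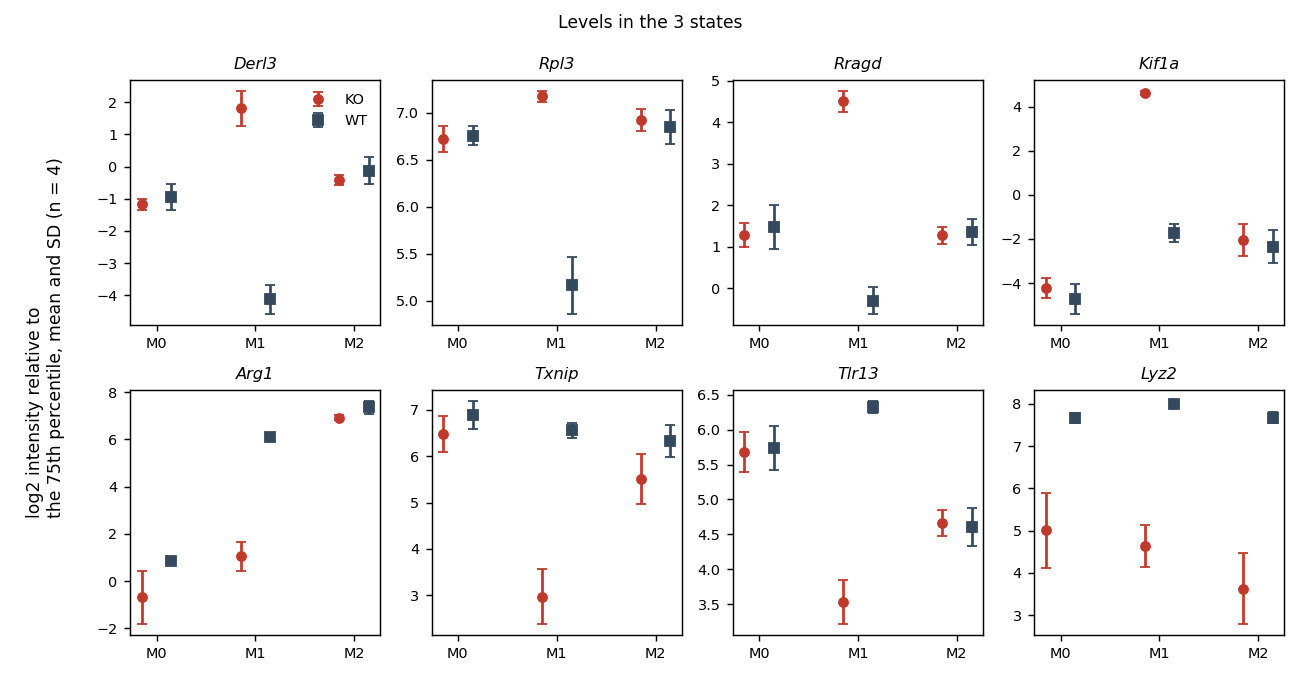
Mean level of 8 genes in M0, M1 and M2 with KO left of WT in each state, as log2 intensity relative to the 75th percentile (bars are the SD, n = 4). Lyz2 is lower in KO in all 3 states, whereas Derl3, Rpl3, Rragd and Tlr13 differ between genotypes in M1 and lie close together in M0 and M2.

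The genotype difference in M1 was unlike that in M0 in 7704 genes (30%) and unlike that in M2 in 7665 (29.9%), and 2924 genes (11.4%) passed both tests as higher and 3076 (12%) as lower. These tests bear on the same M1 arrays and so are not independent of each other. The largest genes of this kind were Derl3, Rasd2, Kif1a, Mreg, Mgll, Slco4a1, Unc93a and Dcbld2 among the higher and Tlr12, Arg1, Calhm2, Fabp7, Cd300lb, Tmem51, Dnmt3l and Prr15 among the lower. Derl3, for example, averaged -1.18 ± 0.18 in KO M0 and -0.95 ± 0.39 in WT M0, and -0.42 ± 0.16 in KO M2 and -0.13 ± 0.43 in WT M2 (SD, n = 4 each). From M0 to M1 it changed by 2.98 in KO cells and by -3.17 in WT cells. Optn changed by 3.48 in KO cells and -0.47 in WT cells, and P2rx7 by -2.49 in KO cells and -0.84 in WT cells. For Tlr13 the changes were -2.14 in KO cells and 0.58 in WT cells. These changes from M0 are differences of group means and were not tested for each genotype.

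**Figure D5:**
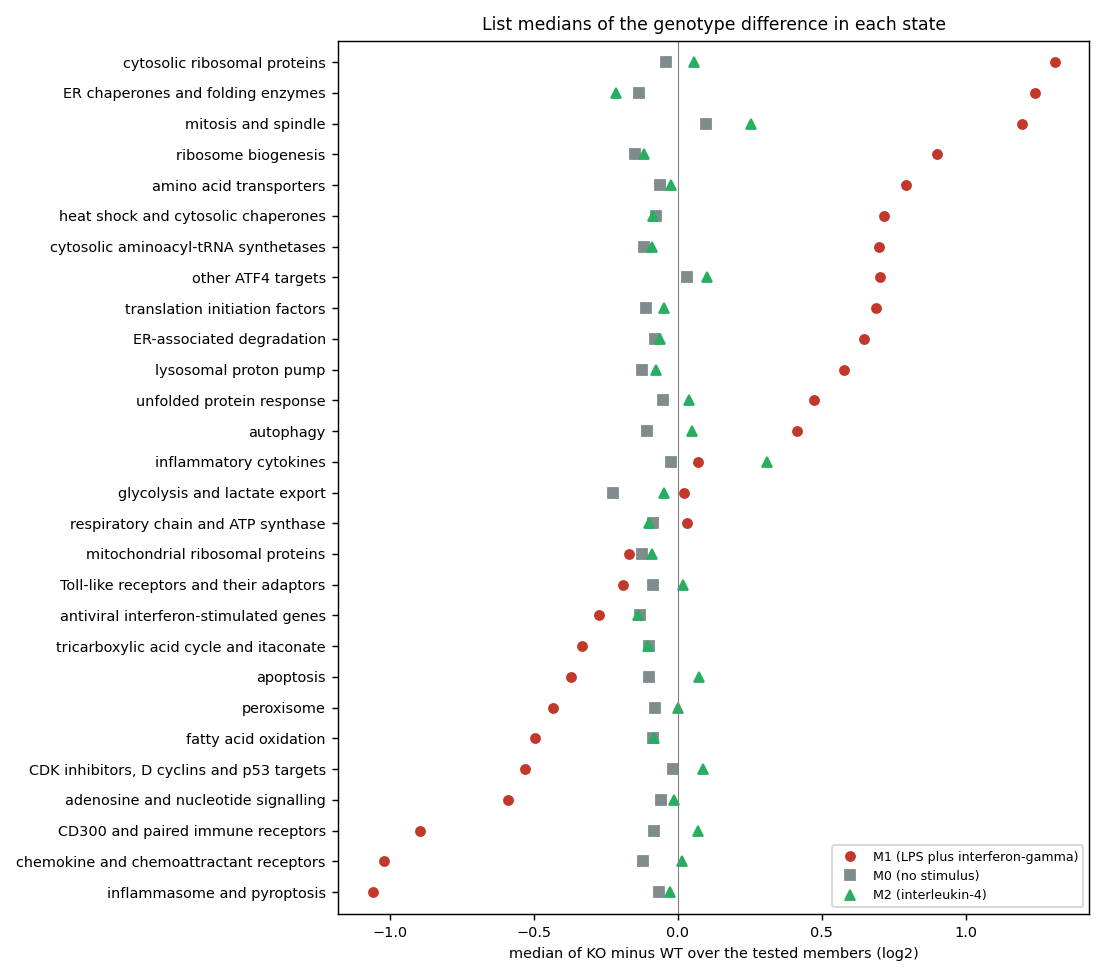
Median of KO minus WT (log2) over the tested members of 28 gene lists in M1 (circles), M0 (squares) and M2 (triangles). The M1 medians run from -1.06 for inflammasome genes to 1.31 for cytosolic ribosomal proteins, while those of M0 and M2 stay between -0.22 and 0.31.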

How the data were processed

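RNA of 24 macrophage cultures was hybridised to one-colour Agilent arrays, and the authors deposited 1 scanner file per array. Per the file headers these hold Feature Extraction 10.7.3.1 output (9.1 per the submitters' processing notes), whose processed signal is a background-subtracted intensity. The deposited intensity was divided by the 75th percentile of its array and put on the log2 scale. Control spots were left out (3671 of 62976 spots), spots of a probe were averaged, and spots marked as outliers in the files were left out, which gave 1751 missing values over genes and arrays. No gene spot was saturated. A probe entered if it was well above background on 4 or more of the 24 arrays (38857 probes), each gene was read by its brightest probe, and 43738 of 56605 probes (77.3%) took their names from RefSeq. Of 8379 genes with several probes, 403 had probes called in both directions. In 2923 transcripts, KO M1 minus WT M1 was read from probes at least 500 bases apart. The difference was higher at the probe nearer the start of the transcript by a median of 0.12 (quartiles -0.05 and 0.46). What part RNA quality had in the results was not tested. Groups were compared with limma 3.58.1 in R 4.3.3 (1 fit over 6 groups, empirical Bayes, Benjamini-Hochberg adjustment). The p-values measure the spread between biological replicates as labelled.

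Same-numbered KO and WT arrays deviated together from their group means (r = 0.227, 0.281, 0.637 and 0.278 for replicates 1 to 4). Arrays of unlike number gave r of -0.39 to 0.247, the highest for KO replicate 1 with WT replicate 4, so only replicate 3 stood well clear. The numbers were taken to pair the samples, and a fit with the pairs as a block was an alternative to the main fit, which had no block. The others were normexp background correction, quantile and median scaling, no filter or a stricter one, the mean of probes, slide as a block, the 8 arrays alone, trended robust variances, and leaving out arrays. Where a gene was not well above background in a group, the fold is a bound set by the dimmest detected signal. The members and lists were chosen with earlier results of these data known. Named genes were Slc2a1 and Lyz2, the 15 largest changes each way that were detected on all 8 arrays with groups apart, up to 4 each way in a list, and the 8 largest each way that passed both tests against M0 and M2. Hspa5, Ero1b, Pycard, Rps9, the Y-linked genes, Xist, the single markers and the genes of the closing section named outside that rule were chosen after their values were seen. The scripts were tested on simulated data. Some genes are not reported here. The authors' processed value table was not used here.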

Additional observations from a re-analysis of the deposited data

Results flagged for a closer look

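Among the groups of 4 arrays looked at for the genes described, 7 (6.5%) held an array far from the other 3, by Dixon's ratio of its gap to the range of the group, and chance flags about 1 in 20. KO replicate 3 was such an array for Atp6v0d2 (6.27), Hk2 (6.28), Mgll (5.67) and Il6 (1.68), and WT replicate 3 for Il10 (-1.19). KO replicate 4 was one for Cxcr4 (2.14) and KO replicate 1 for Hamp (0.16).

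The genotype difference in M1 was unlike that in M0 and in M2 for the genes below, by limma's interaction contrast, with adjusted p-values between 4.37e-09 and 0.01 against M0. Each pair of values is the M1 difference minus that in M0 and then minus that in M2, on the log2 scale. For higher genes they were 6.15 and 6.21 for Derl3, 6.66 and 5.97 for Rasd2, 5.88 and 6.05 for Kif1a, 5.42 and 5.49 for Mreg, 5.36 and 5.29 for Mgll, 5.37 and 5.10 for Slco4a1, 5.42 and 5.05 for Unc93a, and 5.16 and 4.97 for Dcbld2. For lower genes they were -3.87 and -3.93 for Tlr12, -3.50 and -4.61 for Arg1, -3.40 and -3.42 for Calhm2, -3.40 and -3.81 for Fabp7, -3.38 and -3.58 for Cd300lb, -3.30 and -3.28 for Tmem51, -3.19 and -3.36 for Dnmt3l, and -3.13 and -3.63 for Prr15. Both contrasts use the same KO M1 and WT M1 arrays.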

How the results depend on the processing

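The genes called between KO M1 and WT M1 numbered 9865 to 14788 over the alternatives that kept all 8 M1 arrays, against 11326, and 9460 to 11501 when arrays or pairs were left out (higher 4681 to 6329, lower 4779 to 5403). The number higher moved by over 1.5 times to 3701 with median scaling and 9411 with no filter on dim probes, where 14788 of 37008 genes were called, and the difference between the M1 and M0 contrasts gave 6267 higher genes with no filter. That contrast called 6711 to 7834 genes (higher 3361 to 4122, lower 3350 to 3801) and the one against M2 6666 to 7675 (higher 3015 to 3684, lower 3651 to 4142) when arrays or pairs were left out. With the replicate block 14643 genes were called over 24 arrays and 13182 over the 8 arrays. Among the named genes tested under each alternative it changed the call of Atf3, Pdia3 and Tnf, all called with it, and of no other.

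Of 184 named genes, 171 kept their direction and their side of the threshold under every alternative in which they were tested. Pycard turned from -1.31 to 0.49 with the mean of its probes, which brings in the dim probe with the opposite sign. Il6 and Ccnd1 lost their calls as given above, Arrdc4 with the mean of its probes (0.97), Csf1r (-0.48) and P4hb (-0.44 and -0.36) were called lower with quantile and median scaling, and the causes of the other changes were not tested. Some lists with a median near 0 changed sign with the normalization, and the cause was not tested. The median of all genes was 0.22 with normexp, -0.05 with quantile and -0.14 with median scaling, against 0.13. Probes with no signal well above background on a group's arrays give only a bound there, and differences of genes near background are the least certain.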

Other observations

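Lipid, hypoxia and surface lists that the account above does not describe held large single changes. Their counts are to be read beside 22.8% higher and 21.4% lower over all genes. In cholesterol synthesis 6 of 22 genes rose and 8 fell, with the decarboxylase Mvd at 2.43. Insig1, which holds back that pathway, rose by 2.63 within a list of 21 nuclear regulators of lipid and mitochondrial genes with 9 higher and 6 lower, or 4 and 9 with median scaling, where its median was -0.08 against 0.19. In fatty acid synthesis and cholesterol efflux 5 of 21 rose and 4 fell, near the shares over all genes (10 and 6 with the pairs as a block, 4 and 6 with median scaling). Dgat2, which makes triglycerides, was at 2.75. Of 21 hypoxia-type genes 9 rose and 4 fell, led by the vascular growth factor Vegfa (2.59), but with median scaling 5 rose and 8 fell, and without the replicate 3 pair 6 rose and 6 fell. Of 19 co-stimulatory and checkpoint ligands 4 rose and 5 fell, near the shares over all genes. Among those called were Slamf1 (3.98), Cd83 (2.35), Cd276 (-2.62, well above background on 7 of the 8 M1 arrays) and Havcr2 (-2.32). Of 24 effector genes of interleukin-4, 12 rose and 3 fell in KO M1 (median 0.76), or 8 and 4 with median scaling. Retnla, a secreted marker of alternative activation, was not well above background in WT M1 and was at least 36.9-fold higher in KO M1. Its mean was also higher in KO without stimulation, at 2.25 ± 1.89 in KO M0 and -4.19 ± 3.80 in WT M0 (SD). From M0 to M1 Retnla changed by -2.85 in KO cells and by -2.96 in WT cells. The chemokine Ccl22 rose by 2.76, on a probe well above background on 6 of the 8 M1 arrays and with a mean of -5.09 in WT M1. The summed level of the neutrophil markers was also higher in KO M1 (7.80 to 8.41) than in WT M1 (6.41 to 7.47). Of these 15 markers 4 were called higher and 1 lower, against 22.8% and 21.4% of all genes, and their part was not tested.

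Clock and ERK feedback genes are given as values, since both groups were put together after their values were seen, and neither has a test. Of 17 genes of the circadian clock 13 were called higher in KO M1 than in WT M1 and 0 lower, against 22.8% higher over all genes, with a median difference of 1.59. The repressors Bhlhe40 and Bhlhe41 differed by 3.12 and 3.04, the nuclear receptor Nr1d2 by 2.11 and the period gene Per2 by 1.93.

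Of 19 feedback genes of the ERK kinase cascade 9 were called lower and 1 higher, against 21.4% lower over all genes, with a median difference of -0.90. Spred2, Dusp6, Etv5 and Spry2, of which Spred2, Dusp6 and Spry2 restrain the cascade and Etv5 is a factor it induces, differed by -2.65, -2.56, -2.44 and -2.37, and Spry1 by 2.24.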
